A study of Mus musculus with 40 samples.

Results

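The genes described here are 63 ligands and receptors of axon guidance, chosen by symbol from the 26906 genes of the count table. They comprise 20 semaphorins (classes 3 to 7), 10 plexin entries of classes A to D, 3 Slits, 4 Robo receptors, 4 netrins, 14 Eph receptors and 8 ephrins. In all, 60 of them passed the filter on low counts and were tested. The other 3 were Epha6 with 32 counts over 40 libraries, Plxnb3 with 82 counts, and Plxna4os1, an antisense transcript that the symbol rule takes with the plexins, with 7 counts.

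The poly(A) RNA came from mouse embryonic stem cells of the line CGR8 (strain 129), grown as aggregates in serum-free N2B27 medium to which Activin-A, Fgf2 and KSR were added. One arm was left untreated. The other had XAV939 in the medium over the time from 0 to 72 h, a compound that inhibits tankyrase and so dampens Wnt signals that run through β-catenin. Each arm was sampled at days 3, 4, 5, 6 and 7 with 4 libraries a group, 40 in all and all from this 1 line. The labels of untreated libraries name growth without matrigel and those of the treated ones do not name it, so matrigel and the inhibitor cannot be told apart in any comparison of the arms. Whether the libraries of a group came from separate cultures is not labelled, so a p-value reflects the spread among libraries, which may be technical.

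Library totals ran from 30197759 to 44086019 counts (median 35737152). Levels are CPM, counts scaled to the library total after correction by trimmed means of M values, with mean ± SD of 4 libraries, and genes are compared with each other only as CPM per kilobase of exon. A gene was called when its Benjamini-Hochberg adjusted p in the edgeR quasi-likelihood test over 16878 genes was below 0.05. Each log2 fold change is printed ± its standard error (SE), XAV939 over untreated or later over earlier day. In bulk RNA, fewer cells of a type and less RNA per cell cannot be told apart. The 6 listed epiblast markers summed to 2918 to 3560 CPM in the untreated libraries of day 3 and to 85.2 to 156 CPM at day 7. Over the same days the 8 listed markers of somitic mesoderm went from 2.175 to 3.42 CPM, with Uncx at 0, to 152 to 285 CPM.

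Growing axons and migrating cells read 4 large families of guidance cues. Semaphorins act through plexins, the secreted class 3 members mostly with neuropilins as co-receptors. Slits repel through Robo receptors, and netrins attract through Dcc and repel through Unc5 receptors. Ephrins are bound to the membrane, ephrin-A proteins by a lipid anchor and ephrin-B proteins by a transmembrane segment, and they signal through Eph receptor tyrosine kinases on the neighbouring cell. All these families also serve outside the nervous system, for example in sorting cells, forming somite borders and patterning vessels.

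Promoter sequence was available from RefSeq (build GRCm38.p6) for 54 of the 63 members, in 70 windows of 250 bases before a start site. The windows were searched on both strands for CTTTGAT and CTTTGAA, letters that the TCF/LEF factors of the Wnt pathway are known to bind, and for AGGTGTGA, a T-box sequence. CTTTGAT was in 0 of 70 member windows and in 3.21% of all 32851 windows, CTTTGAA in 2.86% and 4.46%, and AGGTGTGA in 0 of 70 and 1.12%. Epha2 and Sema3e held the matches. The windows of Robo3, Efna1 and Efna3 are shown because these genes differ between the arms below, and that of Epha2 because it holds a match, in capitals, 209 bases before the start. Each is limited to the bases outside the GENCODE gene and runs 5′ to 3′ on the gene's strand, at chr9:37433247-37433425 (minus), chr3:89281143-89281201 (minus), chr3:89322966-89323189 (minus) and chr4:141300971-141301220 (plus). A match is a description of letters and no site of binding, and its absence says only that these letters are not in this window.
Robo3: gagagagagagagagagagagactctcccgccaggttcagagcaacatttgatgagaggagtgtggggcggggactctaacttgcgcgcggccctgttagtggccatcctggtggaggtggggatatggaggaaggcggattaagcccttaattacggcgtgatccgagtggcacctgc
Efna1: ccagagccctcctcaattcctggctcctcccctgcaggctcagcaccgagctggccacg
Efna3: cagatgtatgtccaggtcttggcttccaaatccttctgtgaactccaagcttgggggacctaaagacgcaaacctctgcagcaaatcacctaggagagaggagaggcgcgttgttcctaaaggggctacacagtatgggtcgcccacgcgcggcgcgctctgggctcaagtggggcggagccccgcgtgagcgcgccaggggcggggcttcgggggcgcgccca
Epha2: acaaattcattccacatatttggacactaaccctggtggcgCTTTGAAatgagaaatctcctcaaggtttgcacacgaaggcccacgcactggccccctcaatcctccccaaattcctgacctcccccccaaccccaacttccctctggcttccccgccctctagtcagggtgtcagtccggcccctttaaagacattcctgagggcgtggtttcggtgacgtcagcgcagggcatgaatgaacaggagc

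The comparison of day 7 with day 3 asked how the guidance genes changed as the aggregates differentiated. Most of them rose. Without the inhibitor 40 of the 60 tested members rose and 8 fell, and with it 44 rose and 6 fell. Of all genes tested 67.2% were called in untreated aggregates, 34.7% as higher and 32.6% as lower, and 70.9% in XAV939 aggregates, 36.8% as higher and 34.1% as lower. The median log2 fold change of the members was 1.49 untreated and 1.87 treated, against 0.025 and 0.041 over all genes tested. Across the arms 39 members rose in both, 6 fell in both and 0 were called in opposite directions. The mean level was highest at day 7 for 32 members in untreated and 31 in XAV939 aggregates, and highest at day 5 for 12 and 10. The 10 neuron markers, all detected in every group, summed to 147 to 173 CPM at day 3, 70.65 to 101 CPM at day 6 and 143 to 317 CPM at day 7 in untreated libraries, where days 3 and 7 overlapped. In XAV939 libraries the sums were 129.5 to 149, 109 to 483 and 262 to 1194 CPM, and day 7 lay above day 3. A sum does not give the course of each neuron marker. With XAV939 the log2 fold change from day 3 to day 7 was 6.15 for Elavl4, 6.11 for Dcx and 5.57 for Isl1. It was lower for Map2 at 2.23 and Elavl3 at 1.84, and Ina was not called at -0.197. Markers of neural progenitors, 6 of 6 detected, went from 294 to 316 CPM to 485 to 770.3 CPM in untreated libraries. This sum also mixes genes of unlike course. With XAV939 the log2 fold change over these days was 9.10 for Pou3f2, 7.47 for Sox1, 7.24 for Pax6 and 5.58 for Cdh2. It was 1.86 for Sox2, and Nes was not called at 0.322. The part of these cell types in the results was not tested.

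**Figure D1:**
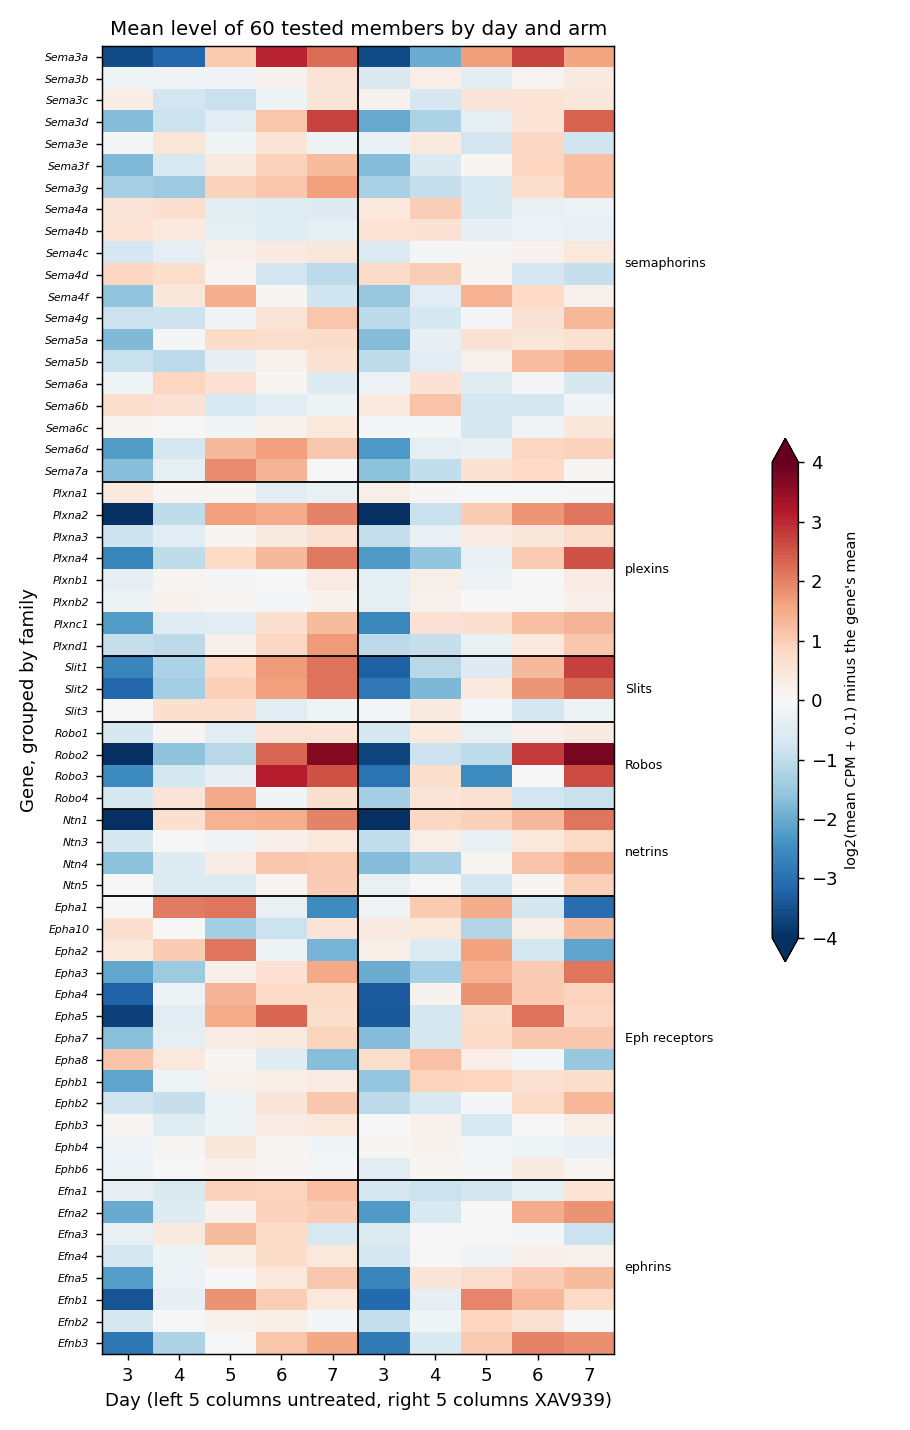
Mean level of the 60 tested members by day (columns, untreated left and XAV939 right), as log2(mean CPM + 0.1) minus the gene's own mean over the 10 groups, grouped by family. Most rows turn from low at day 3 to high at day 7 on both sides, while Epha1 and Epha2 are high at day 5 and low at day 7.

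Among the semaphorins 11 of 20 rose and 4 fell without the inhibitor, and 13 rose and 3 fell with it. The secreted class 3 ligands rose in 5 of 7 cases in each arm with 0 falls, and the 13 other semaphorins gave 6 rises and 4 falls without the inhibitor and 8 and 3 with it. Sema3a (chromosome 5, 13125414 to 13602565, plus strand, mm10), a repellent that acts through neuropilin 1 and A-type plexins, had 0.395, 0.2696, 0.564 and 0.201 CPM in the untreated libraries of day 3. At day 7 these were 26.9, 12.8, 43.4 and 20.7 CPM, so the lowest was above every library of day 3. The log2 fold change was 6.16 ± 0.607 (adjusted p 7.506e-11), and 5.47 ± 0.602 (adjusted p 8.193e-10) in XAV939 aggregates. Its mean was highest at day 6, at 45.3 ± 25.1 CPM untreated and 35.8 ± 12.8 CPM with XAV939.

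Sema4d, a membrane-bound ligand of plexin B1, showed the largest fall among the semaphorins in both arms. Its untreated libraries had 54.45, 43.05, 35.15 and 50.5 CPM at day 3 and 15.1, 11.6, 10.75 and 13.02 CPM at day 7, with no overlap. On the log2 scale this was -1.86 ± 0.223 (adjusted p 5.827e-09), and -1.69 ± 0.222 (adjusted p 3.308e-08) in XAV939 aggregates. Sema4c, a ligand of plexin B2, had the highest level per length of the family, 13.96 CPM per kilobase over the 40 libraries. It rose from 39.3 ± 4.48 to 85.65 ± 5.87 CPM in untreated aggregates, a log2 fold change of 1.125 ± 0.127 (adjusted p 1.632e-09). An exon of Sema4c overlaps the opposite-strand transcript D430040D24Rik over 334 bp, and whether counting used strand is not stated.

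Of the 8 tested plexins 6 rose and 1 fell untreated, and 7 rose and 0 fell with XAV939. Plxna2 (chromosome 1, 194618218 to 194816869, plus strand), a receptor for class 6 and, with neuropilins, class 3 semaphorins, had 2.12, 3.07, 2.95 and 2.07 CPM in the untreated libraries of day 3 and 204, 155, 152 and 205 CPM at day 7. The groups were far apart, with a log2 fold change of 6.13 ± 0.669 (adjusted p 7.402e-10) untreated and 6.21 ± 0.672 (adjusted p 5.606e-10) with XAV939. At day 4 its untreated libraries spread widely, from 4.26 to 59.1 CPM. Plxna1 had the only call for a fall among untreated plexins, from 229.9 ± 41.3 to 141 ± 22.98 CPM, with a log2 fold change of -0.7046 ± 0.255 (adjusted p 0.01519). That call was lost without untreated library 1 of day 3 (adjusted p 0.05683), and 970 bp of its exons overlap the antisense transcript Gm26811. Plxnb2, the plexin with the highest level per length at 20.98 CPM per kilobase, had 139 ± 32.4 CPM at day 3 and 178 ± 19.35 CPM at day 7 untreated, and its log2 fold change was 0.36 ± 0.213 (adjusted p 0.1342). Both neuropilins rose in both arms. Nrp1 went from 0.255 ± 0.141 to 74.15 ± 16.8 CPM in untreated aggregates, a log2 fold change of 8.15 ± 0.579 (adjusted p 3.734e-14).

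All 4 Robo receptors and 2 of 3 Slits rose in untreated aggregates, and 3 and 2 rose with XAV939. Robo2 (chromosome 16, 73891839 to 74411825, minus strand), a Slit receptor of the nervous system and kidney, had the largest rise of all members in both arms. Its 4 untreated libraries of day 3 held 13 counts in all, at 0.141, 0.0809, 0.07685 and 0.0574 CPM. At day 7 they had 62.95, 45.4, 33.1 and 52.65 CPM. The log2 fold change was 9.04 ± 0.696 (adjusted p 2.479e-13) untreated and 8.02 ± 0.645 (adjusted p 5.918e-13) with XAV939. The rise came late, since the untreated mean was 1.66 ± 0.847 CPM at day 5 and 18.9 ± 12.7 CPM at day 6, where the 4 libraries had 32.3, 16.3, 2.585 and 24.6 CPM. Slit1 rose by 4.89 ± 0.462 (adjusted p 2.818e-11) and Slit2 by 5.395 ± 0.342 (adjusted p 2.662e-15) in log2 in untreated aggregates, from 1.54 ± 0.467 and 1.79 ± 0.3297 CPM at day 3. Slit3 had the highest level per length of the Slits and Robos at 7.35 CPM per kilobase. It had 58.2, 39.55, 34.3 and 41.6 CPM at day 3 and 37.2, 42.96, 28.6 and 41.3 CPM at day 7 in untreated libraries. These groups overlapped, with a log2 fold change of -0.21 ± 0.316 (adjusted p 0.5675).

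The 4 netrins rose in each arm. Ntn1 (chromosome 11, 68209364 to 68400823, minus strand), the netrin of the floor plate, had most of the family's RNA per length, 15.9 CPM per kilobase against at most 0.975 for the other 3. At day 3 its untreated libraries had 1.525, 1.67, 1.025 and 0.948 CPM, and already 136, 38.5, 43.5 and 71.9 CPM at day 4. At day 7 they had 188, 213, 130.1 and 208 CPM, a log2 fold change from day 3 of 7.155 ± 0.458 (adjusted p 3.444e-15), and in XAV939 aggregates the change was 7.94 ± 0.4815 (adjusted p 8.887e-16). Among 7 netrin receptors of a partner list 6 rose and 1 fell in each arm. The one that fell was Unc5b, a repulsive receptor also known from vessels, at a log2 fold change of -1.37 ± 0.2798 (adjusted p 6.297e-05) in untreated aggregates. Ntn3 shares 89 bp of exon with Tbc1d24 on its own strand, and Ntn5, with 205 counts over all libraries, overlaps exons of Sec1, so their counts are uncertain.

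The Eph receptors were mixed. Without the inhibitor 6 of 13 rose and 3 fell, and with it 8 rose and 3 fell. Epha5, a receptor of neural tissue, had 8 counts in all in the untreated libraries of day 3, at 0.0282, 0.0539, 0.0256 and 0.115 CPM, and 3.215, 2.71, 3.975 and 2.99 CPM at day 7. Its log2 fold change was 5.79 ± 0.465 (adjusted p 6.655e-13), and the highest mean was that of day 6 at 10.3 ± 4.403 CPM. Epha8, another neural EphA receptor, was low throughout and fell. From 3.59, 2.399, 1.665 and 3.303 CPM in the untreated libraries of day 3 it went to 0.2902, 0.293, 0.159 and 0.448 CPM at day 7, a log2 fold change of -3.17 ± 0.403 (adjusted p 1.839e-08).

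Epha1 and Epha2, receptors best known from epithelia, rose and then fell. Epha1 (chromosome 6, 42358487 to 42373268, minus strand) had the highest level per length of the family, 19.3 CPM per kilobase over the 40 libraries. Its untreated libraries had 53.75, 39.6, 43.1 and 39.8 CPM at day 3, then 192, 210, 175 and 202 CPM at day 5 and 5.47, 9.09, 10.5 and 5.95 CPM at day 7. From day 3 to day 5 the log2 fold change was 2.145 ± 0.4075 (adjusted p 3.596e-05), and from day 5 to day 7 it was -4.66 ± 0.459 (adjusted p 9.832e-10). In XAV939 aggregates the same steps were 1.625 ± 0.402 (adjusted p 0.0007782) and -4.55 ± 0.4595 (adjusted p 1.945e-09). Epha1 shares 236 bp of exon with Zyx on the opposite strand. Epha2 followed at 38.35 ± 9.14, 127 ± 19.5 and 7.85 ± 1.27 CPM on days 3, 5 and 7 of untreated aggregates, with log2 steps of 1.73 ± 0.3801 (adjusted p 0.0002456) and -4.02 ± 0.421 (adjusted p 3.119e-09). At day 4 the untreated library 1 stood apart with 425 CPM of Epha1 and 146 CPM of Epha2, against 94.7 to 128 and 25.9 to 33.2 CPM in the other 3. The sum of the 6 epiblast markers was 940 to 1867 CPM in the untreated libraries of day 5, lower than at day 3. This sum mixes genes of unlike course. From day 3 to day 5 with XAV939, Dnmt3b, Fgf5, Pou5f1 and Utf1 fell, Utf1 at a log2 fold change of -5.17. Nanog, at -0.013, and Tdgf1 were not called.

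Of all 60 tested members, 8 rose from day 3 to day 5 and then fell to day 7 in untreated aggregates. They were Efna3, Efnb1, Epha1, Epha2, Epha5, Sema4f, Sema6a and Sema7a. In XAV939 aggregates the 7 with that course were Efnb1, Efnb2, Epha1, Epha2, Epha4, Robo4 and Sema4f. In all, 47 members were called from day 3 to day 5 (40 higher) and 36 from day 5 to day 7 (25 higher) in untreated aggregates, where 52.6% of all genes were called from day 3 to day 5, 27.9% as higher and 24.7% as lower, and 37.6% from day 5 to day 7, 19.1% and 18.5%. With XAV939 there were 43 (36 higher) and 35 (26 higher), against 58% of all genes, 31% as higher and 27% as lower, and 36.6%, 18.2% and 18.4%.

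**Figure D2:**
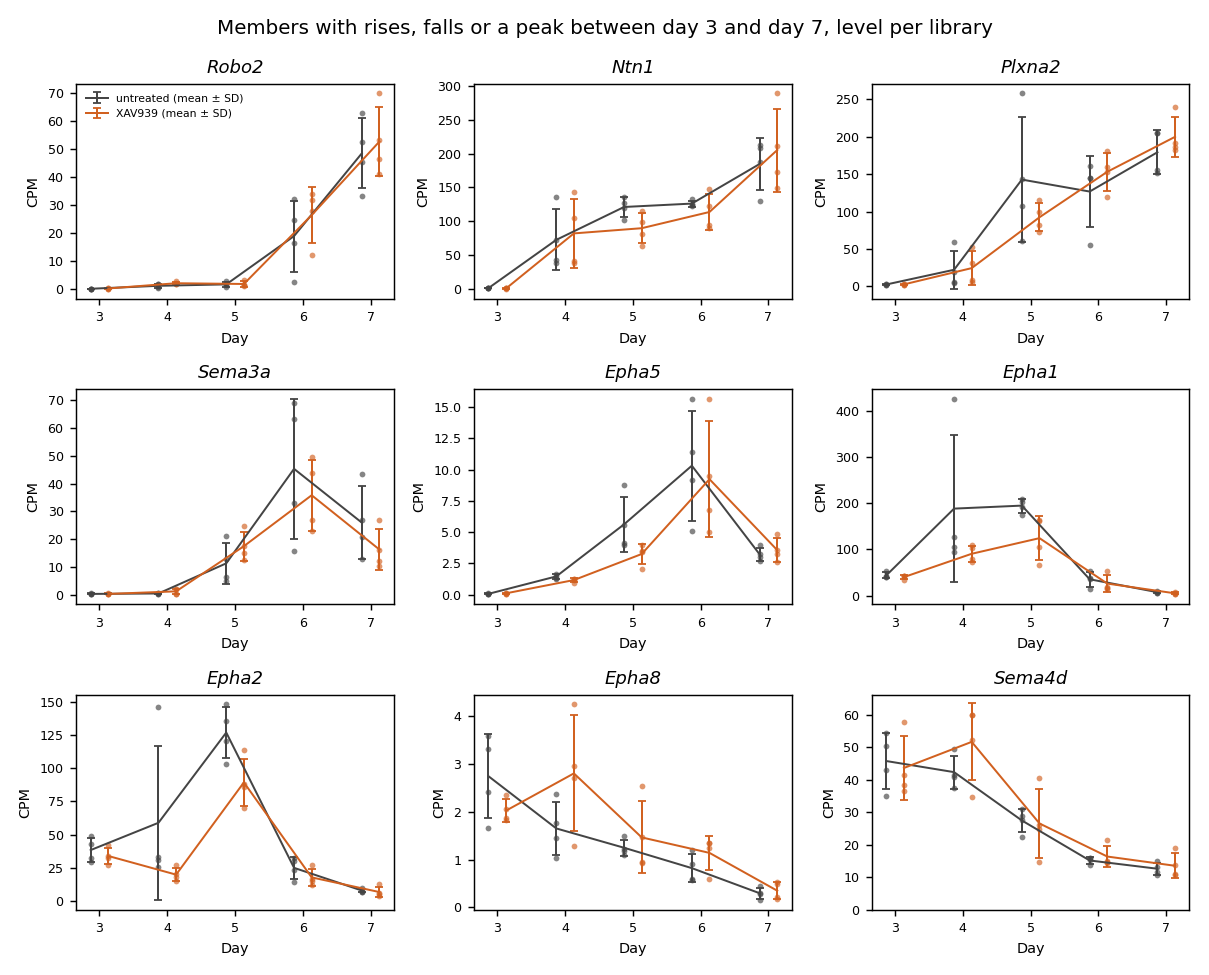
Level in CPM (vertical axis, linear) by day for 9 members in untreated (grey) and XAV939 (orange) aggregates, with points for libraries, lines for means and bars for the SD of 4 libraries. The untreated means of Robo2 and Ntn1 are highest at day 7, those of Sema3a and Epha5 at day 6, Epha1 and Epha2 fall steeply after day 5, and Sema4d is lower at day 7 than at day 3.

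Among the ephrins 7 of 8 rose in each arm, all but Efna3. Efnb3 (chromosome 11, 69554092 to 69560205, minus strand), a transmembrane ephrin known as a midline barrier to axons, had both the largest rise of the family and its highest level per length, 17.6 CPM per kilobase. The libraries had 2.85, 4.83, 4.74 and 4.91 CPM at day 3 and 100.2, 99.6, 74.35 and 106 CPM at day 7 without the inhibitor. This was a log2 fold change of 4.45 ± 0.293 (adjusted p 6.512e-15), and 4.695 ± 0.296 (adjusted p 2.124e-15) in XAV939 aggregates. Efnb1 instead had its highest mean at day 5, at 63.97 ± 15.1 CPM untreated and 71.7 ± 20.9 CPM with XAV939, and stood at 24.7 ± 2.103 and 32.3 ± 12.8 CPM at day 7.

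Of 39 partner genes outside the symbol rule (co-receptors, netrin receptors, other ligands and adhesion partners, and cytoplasmic mediators), 29 rose and 3 fell untreated and 32 rose and 3 fell with XAV939. The 4 with the smallest adjusted p in untreated aggregates were Dpysl4, Nrp1, Rgma and Chl1. Dpysl4, a collapsin response mediator, rose from 0.451 ± 0.228 to 49.35 ± 13.3 CPM, a log2 fold change of 6.78 ± 0.404 (adjusted p 8.236e-16). The neogenin ligand Rgma rose by 3.5 ± 0.2965 (adjusted p 2.262e-12) and the adhesion molecule Chl1 by 6.63 ± 0.572 (adjusted p 3.406e-12) in log2. With XAV939 Dpysl2, another collapsin response mediator, took the place of Chl1, at 1.95 ± 0.156 (adjusted p 5.165e-13). Dcc, the attractive netrin receptor, had 5 counts in the untreated libraries of day 3 and 0 in those with XAV939.

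The comparison of the arms at each day asked what XAV939, present up to day 3, did to these genes at its end and afterwards. At day 3 and day 4 edgeR called 0 of 60 members, where 0.00592% and 0.0178% of all genes were called. At an unadjusted p below 0.05 there were 1 and 13 members, and 1.83% and 5.59% of all genes. DESeq2 called 0 and 2 (Epha2 and Ephb1), with 0.00593% and 0.352% of all genes. The groups did not overlap for 1 and 4 members, and for 1.29% and 2.03% of all genes. At day 4 the untreated libraries of Epha2 had 146, 33.2, 25.9 and 30.6 CPM and those with XAV939 had 14.8, 26.8, 19.9 and 17.8 CPM, so the groups overlapped and 1 untreated library was far above the rest. The log2 fold change was -1.57 ± 0.381 (adjusted p 0.1526). Ephb1 had a log2 fold change of 1.075 ± 0.2805 (adjusted p 0.1831), and its groups did not overlap.

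At day 5 edgeR called 6 members, 2 higher (Sema3c and Efnb3) and 4 lower (Sema6a, Sema6d, Efna1 and Efna3) with XAV939. This was 10% of the tested members, where 2.34% of all genes were called, 0.912% as higher and 1.43% as lower. DESeq2 called 10 members and 3.64% of all genes. The median log2 fold change was -0.17 over the members and 0.014 over all genes. For 12 of the 60 members and for 7.46% of all genes the groups did not overlap. With the replicate number as a block, which pairs the arms, 17 members were called, 6 higher and 11 lower, and 7.35% of all genes. In a fit of only the 8 libraries compared, 0 members and 0 genes in all were called.

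Sema6d (chromosome 2, 124089969 to 124667770, plus strand), a transmembrane ligand of plexin A1, had 48.8, 43.8, 29.2 and 14.05 CPM untreated and 7.52, 15.6, 9.82 and 13.2 CPM with XAV939 at day 5. Only untreated library 4 lay within the range of the other arm. The log2 fold change was -1.56 ± 0.322 (adjusted p 0.007108), and the call was lost without untreated library 1. Sema6a, a transmembrane ligand of plexins A2 and A4, had 113, 90.7, 65.5 and 72.9 CPM untreated and 52.1, 40.2, 47.7 and 23.1 CPM with XAV939. The groups were apart, with a log2 fold change of -1.07 ± 0.244 (adjusted p 0.01344), and the call was lost without untreated library 1 or XAV939 library 4. Sema3c, a secreted ligand that guides neural crest cells as well as axons, went the other way. Its libraries had 8.602, 6.215, 11.8 and 13.8 CPM untreated and 22.8, 27.2, 14.8 and 44.6 CPM with XAV939, with a log2 fold change of 1.44 ± 0.336 (adjusted p 0.01608). This call was lost without untreated library 1 or 2 or XAV939 library 4, with log2 fold changes from 1.097 to 1.64 over single libraries left out. At day 7 Sema3c stood at 27.01 ± 4.28 CPM untreated and 25.8 ± 6.195 CPM with XAV939.

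Efna1 and Efna3, neighbours on chromosome 3, and Efnb3 went in opposite directions at day 5. Efna1 (chromosome 3, 89271733 to 89281142, minus strand), an ephrin-A ligand, had 9.98, 4.31, 3.36 and 2.13 CPM untreated and 1.26, 2.07, 1.66 and 0.954 CPM with XAV939. The lowest untreated library was just above the highest treated one, and the log2 fold change was -1.725 ± 0.442 (adjusted p 0.02987). Efna3, another ephrin-A ligand, lies 32756 bp from Efna1 and had 21.5, 11.8, 16.03 and 5.55 CPM untreated and 6.595, 5.77, 7.1 and 2.93 CPM with XAV939. Untreated library 4 lay below some treated libraries, and the log2 fold change was -1.29 ± 0.358 (adjusted p 0.04397). Efna4 lies 10424 bp from Efna3 and had a log2 fold change of -0.41 ± 0.211 (adjusted p 0.427). The ephrin-A genes on other chromosomes gave -0.16 ± 0.421 for Efna2 and 0.6956 ± 0.302 for Efna5. Without the replicate block neither was called. With it Efna5 was called, at 0.7067 (adjusted p 0.03523 with the block, 0.2961 without). The groups of Efna5 did not overlap, at 26.8, 19.7, 31.4 and 22.2 CPM untreated and 40.02, 42.4, 32.7 and 47 CPM with XAV939. Single libraries decided most of these calls. That of Efna1 was lost when any one of untreated libraries 1 and 2 and XAV939 libraries 1, 3 and 4 was left out, with values from -1.99 to -1.13. The call of Efna3 was lost when any one library other than untreated library 4 was left out, with values from -1.57 to -0.99. The promoter windows of both genes printed above hold none of the motifs searched. Exons of Efna3 overlap the antisense transcript Gm15998 over 344 bp.

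Efnb3 had 41.9, 24.9, 43.5 and 23.3 CPM untreated and 65.2, 80.75, 48.9 and 75.99 CPM with XAV939 at day 5. Every treated library was above every untreated one, with a log2 fold change of 1.02 ± 0.253 (adjusted p 0.0236). At day 6 its libraries had 78.1, 64.7, 52.2 and 88.5 CPM untreated and 171, 127, 82.1 and 136.5 CPM with XAV939. There the groups overlapped, and the log2 fold change was 0.87 ± 0.251 (adjusted p 0.03909). At day 5 the call was lost without untreated library 2 or 4 or XAV939 library 2 or 4, and at day 6 without untreated library 1, 2 or 3 or XAV939 library 1, 2 or 4, with values from 0.87 to 1.17 and from 0.7001 to 1.03. Efnb2, also a marker of arteries and somite borders, had 96.2, 75.85, 126.5 and 81.7 CPM untreated and 183, 167, 137 and 127 CPM with XAV939 at day 5. Those groups did not overlap, with a log2 fold change of 0.69 ± 0.202, and with the replicate block it was 0.7048 (adjusted p 0.00392 with the block, 0.05957 without).

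**Figure D3:**
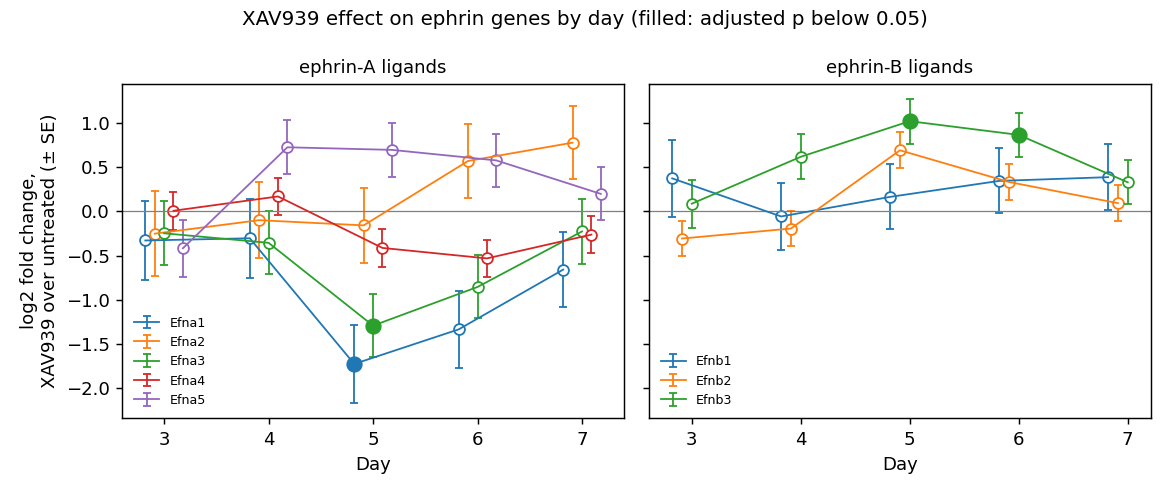
log2 fold change of XAV939 over untreated (vertical axis, bars ± SE) by day for the 5 ephrin-A and 3 ephrin-B genes, filled where the adjusted p was below 0.05. Efna1 and Efna3 are lowest at day 5, at -1.725 and -1.29, and Efnb3 is highest at day 5, at 1.02.

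The 11 members called at day 5 with the replicate block and not without it included the repellents Slit1, at -1.25 (adjusted p 0.0001589 with the block, 0.06368 without), and Slit3, at -0.92 (adjusted p 0.007263 with the block, 0.2649 without). The receptor Robo3 was at -2.47 (adjusted p 0.04143 with the block, 0.06417 without), and Plxna4, a receptor for class 3 and class 6 semaphorins, was at -1.06 (adjusted p 0.01178 with the block, 0.2053 without). Of the rest of the 11, Efnb2, Efna5, Epha3 and Plxnc1 were higher with XAV939, and Ephb4, Sema6c and Sema7a were lower. Slit1 had 26.8, 18.03, 19.1 and 5.82 CPM untreated and 9.57, 8.53, 5.897 and 3.72 CPM with XAV939. In each pair of libraries with the same number the treated library was lower, while the groups as a whole overlapped. The partner list gave 1 call among its 39 genes at day 5 (2.56%, against 2.34% of all genes), for the netrin receptor Unc5d, with 1.105, 1.79, 1.47 and 1.105 CPM untreated and 0.505, 0.608, 0.487 and 0.395 CPM with XAV939. Its log2 fold change was -1.45 ± 0.269 (adjusted p 0.003806). Marker sums of day 5 are given beside these genes. The 8 somitic markers, all detected, summed to 10 to 120.2 CPM untreated and 5.98 to 12.01 CPM with XAV939. The 6 endoderm markers summed to 200 to 390.3 CPM and 70.6 to 148 CPM, with no overlap. For the 6 neural progenitor markers the sums were 362 to 522 CPM and 413 to 668 CPM, which overlapped. For the 6 neural crest markers they were 25.24 to 36.69 CPM and 41.14 to 55.55 CPM, with no overlap. Each of these sums mixes genes of unlike course. That of endoderm was already 649.8 to 758.5 CPM in the untreated libraries of day 3. From day 3 to day 5 with XAV939, Cldn6, Epcam and Krt8 fell, while Foxa1, Foxa2 and Sox17 rose. The part of these cell types in the results was not tested.

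At day 6 edgeR called 4 members, 3 higher (Efnb3, Epha7 and Sema5b) and 1 lower (Robo3) with XAV939. This was 6.67% of the tested members, where 4.34% of all genes were called, 1.39% as higher and 2.95% as lower. DESeq2 called 6 members and 5.73% of all genes. The groups did not overlap for 4 members and 5.92% of all genes. The members' median log2 fold change was 0.031. With the replicate block 9 members and 10.2% of all genes were called, adding Efna1, Efna3, Efna4, Epha10 and Plxna1, and a fit of only the 8 libraries compared called 0 members and 0 genes in all. Untreated library 1 of day 4 and untreated library 3 of day 6 stood apart from their groups, and without both, 2 members were called at day 6, Robo3 and Sema5b. They were not the only libraries that differed from their group. By chi-square per gene, XAV939 library 1 of day 4 lay at 77.4 to 119 from its group, against 84.5 to 108 for untreated library 1. That treated library was left out only singly.

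Robo3 (chromosome 9, 37415669 to 37433246, minus strand) encodes the divergent Robo receptor that lets commissural axons cross the midline. It showed the largest fold among the members called between the arms. At day 6 its untreated libraries had 38.5, 22.8, 14.8 and 4.92 CPM and those with XAV939 had 2.34, 2.45, 3.13 and 1.17 CPM. The groups did not overlap, although the untreated libraries spread widely, and the log2 fold change was -3.15 ± 0.637 (adjusted p 0.002858). The call was kept in 8 of 8 fits with 1 library left out, with values from -3.48 to -2.64. Over all 15 alternatives the adjusted p ran from 0.0004217 to 0.1052, the highest with only the libraries compared. At day 7 the groups overlapped, with 8.44, 11.9, 20.5 and 12.6 CPM untreated and 12.8, 18.5, 10.85 and 14.8 CPM with XAV939 and a log2 fold change of 0.0898 ± 0.579 (adjusted p 1). At day 5 the libraries had 2.99, 1.51, 2.09 and 0.474 CPM untreated and 0, 0.387, 0.658 and 0.1975 CPM with XAV939, with a log2 fold change of -2.48 ± 0.736 (adjusted p 0.06417). At day 4 the direction was the opposite, at 1.5 ± 0.632 (adjusted p 0.6869), where XAV939 library 1 had 10.25 CPM against 1.16 to 2.07 CPM in the other 3.

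Robo3 was also the only member for which the effect of XAV939 differed among the 5 days by an edgeR F test in the fit of all libraries (adjusted p 0.04525), where 0.231% of all genes were called. That call was lost without a filter on low counts and without the libraries named above that stood apart. Exactly 1 member was called in 9 of 40 fits with 1 library left out, and the remaining fits called 0 or 2. DESeq2 called 2 members, Robo3 and Sema6d, and 1.46% of all genes. With the replicate block the test called 5 members, Efnb2, Epha7, Ntn4, Robo3 and Slit1, and 2.6% of all genes. Robo4, the Robo of endothelium, lies 553 bp from Robo3 on the other strand with no shared exon. Its log2 fold change at day 6 was -0.69 ± 0.503 (adjusted p 0.5527).

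Sema5b, a transmembrane semaphorin with thrombospondin repeats, had 16.2, 20.3, 11.9 and 22.5 CPM untreated and 45, 40.5, 21.3 and 40.1 CPM with XAV939 at day 6. The treated library 3 was the lowest of its group and lay within the untreated range. Its log2 fold change was 1.05 ± 0.246 (adjusted p 0.008761), and the call was lost without untreated library 3 or XAV939 library 1. Sema5b was not called at day 7, where its log2 fold change was 0.93 ± 0.245, and with the replicate block 0.9018 (adjusted p 0.02682 with the block, 0.1128 without). Its libraries there had 24.96, 21.2, 17.3 and 31.9 CPM untreated and 69.3, 36.4, 33.8 and 41.9 CPM with XAV939, with no overlap. Epha7, an EphA receptor of neural tissue, had 50.6, 46.1, 20.5 and 49.15 CPM untreated and 72.05, 68.7, 54.9 and 80.3 CPM with XAV939 at day 6. All 4 treated libraries were higher, with a log2 fold change of 0.73 ± 0.2096 (adjusted p 0.03704). That call was lost without untreated library 2 or 3 or XAV939 library 1, 2 or 4, with values from 0.51 to 0.84.

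The partner list gave 5 calls at day 6, 4 higher and 1 lower, which is 12.8% of its 39 genes against 4.34% of all genes. Unc5b was lower with XAV939, at 52.5, 56.1, 52.8 and 30.9 CPM untreated and 13.98, 16.6, 23.3 and 13.2 CPM treated, a log2 fold change of -1.52 ± 0.284 (adjusted p 0.001245). The repulsive netrin receptor Unc5c was higher, with 1.57, 1.799, 0.711 and 2.96 CPM untreated and 58.2, 1.87, 4.92 and 20.6 CPM treated. Those groups overlapped, the treated libraries differed widely, and the log2 fold change was 3.598 ± 0.7399 (adjusted p 0.003375). Srgap3, a mediator of Slit-Robo signals, was higher at 1.28 ± 0.312 (adjusted p 0.01203) and Flrt1, of a family of adhesion molecules that bind Unc5 receptors, at 1.915 ± 0.511 (adjusted p 0.02256). The fifth call was for Dcc, named after its values were seen, at 2.06 ± 0.561 (adjusted p 0.02737). The library with the most Unc5c, XAV939 library 1, also had the highest sum of the 10 neuron markers at day 6, 483 CPM against 109 to 191 CPM in the other 3 treated and 70.65 to 101 CPM in the 4 untreated libraries. Neural progenitor markers summed to 309 to 635 CPM untreated and 599 to 918 CPM treated. Somitic markers summed to 163 to 337 CPM and 91.35 to 184 CPM, and endoderm markers to 298 to 875 CPM and 156 to 265.5 CPM. The progenitor, somitic and endoderm sums mix genes of unlike course, as stated for day 5. The part of these cell types in the results of day 6 was not tested.

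At day 7 edgeR called 0 of 60 members, where 0.00592% of all genes were called. At an unadjusted p below 0.05 there were 4 members and 7.86% of all genes. DESeq2 called 1 (Sema5b) and 0.598% of all genes, and the replicate block 2 (Robo4 and Sema5b) and 2.26%. The groups did not overlap for 3 members and 4.9% of all genes. Robo4 had 2.902, 0.683, 0.859 and 0.548 CPM untreated and 0.499, 0.465, 0.179 and 0.336 CPM with XAV939, with no overlap and with untreated library 1 far above the rest. It had a log2 fold change of -1.76 ± 0.496, and with the replicate block -1.55 (adjusted p 0.04864 with the block, 0.1375 without). Without untreated library 1 these were -0.9048 (adjusted p 0.7338) and, with the block, -1.095 (adjusted p 0.4023), and the call with the block was lost whichever single library of day 7 was left out. The 8 endothelial markers, all detected, summed to 63.7 to 191 CPM untreated and 38.96 to 55.3 CPM with XAV939 at day 7, and their part in the values of Robo4 was not tested. This sum mixes genes of unlike course. At day 3 it was already 53.65 to 62.25 CPM untreated, with Emcn at 0, and 55.88 to 61.84 CPM with XAV939, with Cdh5 and Emcn at 0. From day 3 to day 7 with XAV939, Egfl7, Pecam1 and Tek fell, while Cdh5, Emcn, Esam, Kdr and Tie1 rose. How far the XAV939 effect changed between days 3 and 7 was called for 0 members and 0 genes by edgeR, with 3 members and 4.25% of all genes at an unadjusted p below 0.05.

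**Figure D4:**
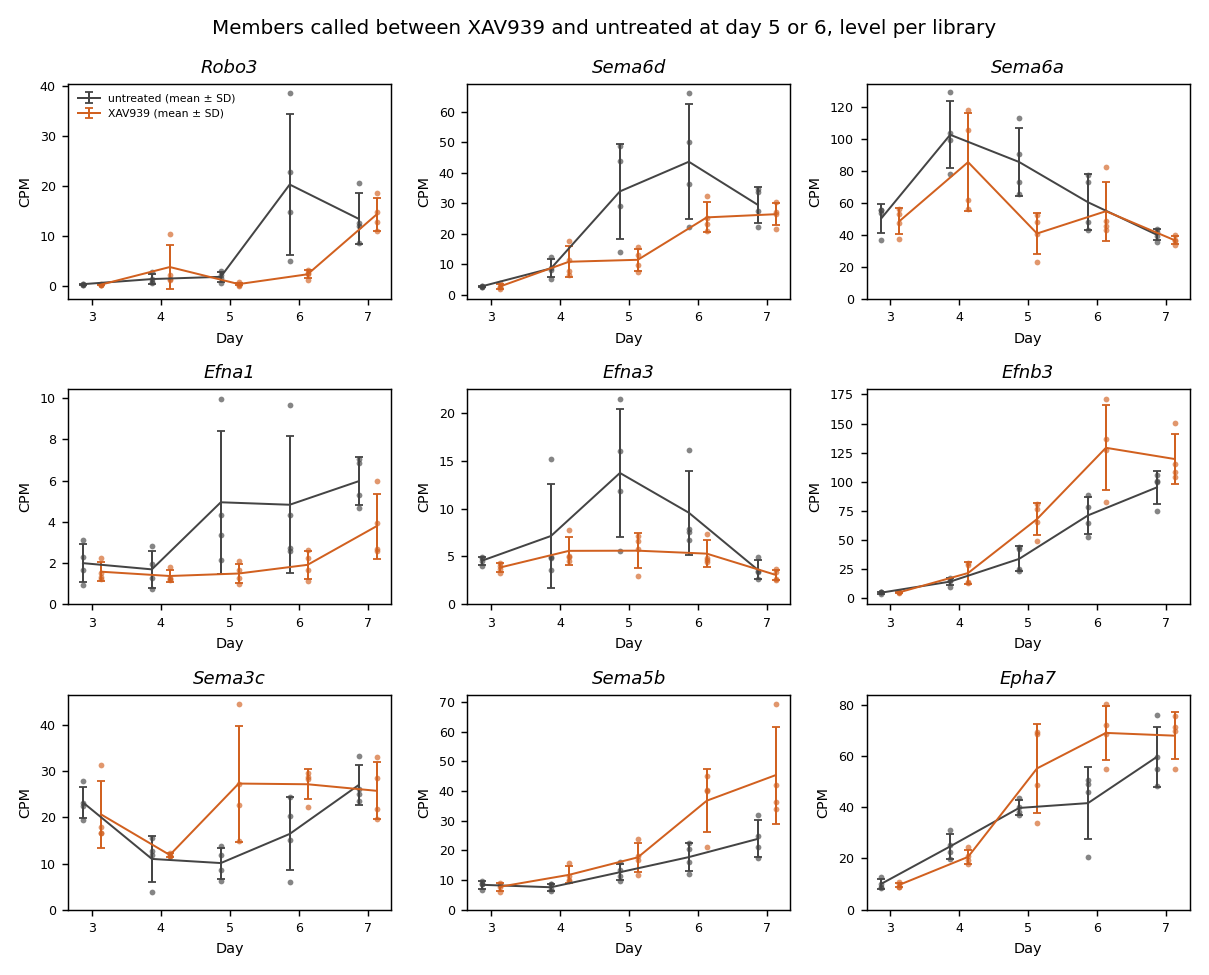
Level in CPM (vertical axis, linear) by day for the 9 members called between the arms at day 5 or 6, in untreated (grey) and XAV939 (orange) aggregates, with points for libraries, lines for means and bars for the SD of 4 libraries. For Robo3 the untreated mean is 20.2 CPM at day 6 against 2.275 CPM with XAV939, and at day 7 the points of both arms overlap.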

How the data were processed

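The authors deposited 1 table of raw gene counts for the 40 libraries, with no normalisation, judged from its whole numbers. Libraries were stranded TruSeq from poly(A) RNA, per the labels' protocols. The submitters' processing notes list bcl2fastq 2.20.0 and the build mm10. For the aligner, the counter, the gene models and the use of strand, the entry is "not given in the sources used here". Coordinates, exon lengths and overlaps came from GENCODE M21, which matched 26881 gene identifiers and not the other 25. No libraries of a group were copies (smallest chi-square per gene 10.2).

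filterByExpr (minimum count 10, minimum total 15) left 16878 genes, and edgeR 4.0.16 in R 4.3.3 fitted 1 quasi-likelihood model with 10 group means to all 40 libraries (30 residual degrees of freedom, prior 5.19). Alternatives used DESeq2 1.42.0, other scaling and filters, fewer libraries and a block. The replicate numbers were taken as pairs of libraries across the arms, from their data: 20 correlations within days, of deviations of same-numbered libraries, ran from 0.145 to 0.523, and 20 of 20 libraries correlated best with their own number. What a number marks is not stated. Between day 3 and day 7 the 8 correlations ran from -0.07 to 0.20.

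The members and lists were chosen with earlier results of these data known. Full values are given for members called between the arms, for the called member of each family (Slits with Robos) with the largest rise and fall from day 3 to day 7 untreated, and for the member with the highest CPM per kilobase. Of the partners at most 4 called genes with the smallest adjusted p are named. The steps to and from day 5, the fit without 2 libraries that stand apart, and the fits of Robo4 at day 7 with single libraries left out, were added after the data were seen, as were further values of members outside this rule (Epha2, Ephb1, Efna2, Efna4, Efna5, Efnb1, Efnb2, Plxna4, Slit1, Slit2, Robo4). On simulated counts of 16769 genes for day 5, 62% of 2-fold and 93% of 4-fold changes were recovered, and 3.73% of the calls were false. The simulated libraries were independent of each other. Their spread was that of the fitted count model, without the gene-by-gene part that the quasi-likelihood test adds. Pairs across the arms and libraries that stand apart were not simulated, so these rates need not hold for the calls of day 5.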

Additional observations from a re-analysis of the deposited data

Results flagged for a closer look

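Of 210 groups of 4 libraries (21 genes with full values), 20 held a library whose gap to its nearest neighbour, as a share of the group's range, exceeded the 95% limit of Dixon's test. This was 9.52%, where chance gives about 1 in 20 groups of independent, normally spread values. CPM need not be so spread, and the same libraries recur across the genes. Whether outliers were in excess was therefore not tested. At day 4, untreated library 1 was high for Epha1, at 425 CPM against 94.7 to 128 CPM in the other libraries, and for Efna3 at 15.2 CPM against 3.62 to 4.93 CPM. At day 4, XAV939 library 1 was high for Robo3 at 10.25 CPM against 1.16 to 2.07 CPM and for Efna3 at 7.73 CPM against 4.55 to 5.09 CPM. XAV939 library 2 of day 4 had 1.80 CPM of Efna1 against 1.19 to 1.27 CPM, and library 3 had 12.4 CPM of Sema3c against 11.7 CPM in the nearest library. At day 6, untreated library 3 was low for Epha7 at 20.5 CPM against 46.1 to 50.6 CPM and for Plxna2 at 55.9 CPM against 144 to 161 CPM. It was high for Efna3 at 16.2 CPM against 6.74 to 7.88 CPM and for Sema4c at 85.1 CPM against 76.4 to 77.6 CPM. XAV939 library 3 of day 6 was high for Epha1 at 53.6 CPM against 15.6 to 19.9 CPM, for Efna3 at 7.38 CPM against 4.38 to 4.82 CPM and for Sema6a at 82.2 CPM against 42.9 to 48.5 CPM. XAV939 library 1 of day 6 had 0.605 CPM of Epha8 against 1.25 to 1.35 CPM, and 21.4 CPM of Sema4d against 14.3 to 14.97 CPM. At day 3, untreated library 1 had 2.85 CPM of Efnb3 against 4.74 to 4.91 CPM, and untreated library 2 had 36.7 CPM of Sema6a against 53.5 to 55.5 CPM. XAV939 library 4 of day 3 had 0.183 CPM of Ntn1 against 1.01 to 1.03 CPM, and 31.5 CPM of Sema3c against 16.6 to 17.9 CPM. At day 7, XAV939 library 4 had 239 CPM of Plxna2 against 182 to 191 CPM.

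Robo3 was singled out because the effect of XAV939 on it differed among the 5 days (F test of edgeR, adjusted p 0.04525, with 0.231% of all genes called), from 1.5 at day 4 to -3.15 at day 6 on the log2 scale. At day 4 XAV939 library 1 had 10.25 CPM of Robo3 against 1.16 to 2.07 CPM in the rest of its group. The F test call was lost in some of the alternatives given above.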

How the results depend on the processing

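The rises and falls over time kept their counts within a factor of 1.5 under every alternative run, with 46 to 48 members called from day 3 to day 7 in untreated and 45 to 50 in XAV939 aggregates when single libraries were left out, 42 to 50 and 40 to 42 from day 3 to day 5, and 29 to 37 and 32 to 36 from day 5 to day 7. No result changed direction. The calls between the arms moved more. At day 4 DESeq2 called 2 members in place of 0. At day 5 it called 10 in place of 6, the replicate block called 17, and a fit of only the libraries compared called 0. At day 6 the replicate block called 9 members in place of 4, the fit of only the libraries compared 0, and leaving out untreated library 1 of day 4 and untreated library 3 of day 6 gave 2. At day 7 DESeq2 called 1 and the replicate block 2 in place of 0. For the F test among the days, DESeq2 called 2 and the replicate block 5 in place of 1, while no filter on low counts, and leaving out the 2 libraries, gave 0. The cause was not tested, other than that the fit of only the libraries compared holds 8 of 40 libraries. With single libraries left out, the counts ran from 0 to 0 at day 3, 0 to 2 at day 4, 1 to 9 at day 5, 1 to 5 at day 6, 0 to 0 at day 7, 0 to 2 for the F test and 0 to 0 for the change from day 3 to day 7. At day 5 the count was 1 without untreated library 1 (Efnb3), 2 without untreated library 2 (Sema6a and Sema6d) and 1 without XAV939 library 4 (Sema6d). At day 6 it was 1 (Robo3) without untreated library 3 or XAV939 library 1, and 2 (Robo3 and Sema5b) without untreated library 2 or XAV939 library 4. Without a filter on low counts Efna3 at day 5 had an adjusted p of 0.05446 and Efnb3 at day 6 of 0.05546. The replicate block ended no call between the arms, and the calls it added, such as Robo3 at day 5, Efna1 and Efna3 at day 6, Sema5b at day 7 and Epha7 in the F test, are those counted above. Members such as Epha6, with 32 counts, were too shallow to test.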
